A study of Mus musculus with 15 samples.

Results

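Contractile actin-binding genes were followed through 5 conditions of mouse small intestinal organoids, which are epithelial cultures grown from crypts in a gel. The set held 10 genes of the 78298 listed per library, chosen by symbol: the tropomyosins Tpm1, Tpm2 and Tpm4, the transgelins Tagln and Tagln2, the calponins Cnn2 and Cnn3, the myosin light chain gene Myl9 and the myosin heavy chain genes Myh9 and Myh14. RNA was sequenced in bulk from 15 libraries, 3 per condition. The reference organoids carried the transgene L30prom_V5-Halo-GDGAGLIN-NLS_IRES_Puro (Halo-NLS), a nuclear HaloTag without SOX9. Overexpressing lines carried L30prom_Sox9-GDGAGLIN-Halo-V5_IRES_Puro (SOX9-Halo) or L30prom_Sox9-GDGAGLIN-mEGFP-V5_IRES_Puro (SOX9-mEGFP), each sampled while budding and again as spheroids. The spheroid cultures carried an extra histone transgene, L30prom_H2B-GDGAGLIN-mEGFP-V5_IRES_Zeo in SOX9-Halo spheroids and L30prom_H2B-GDGAGLIN-mScarletI-V5_IRES_Neo in SOX9-mEGFP spheroids. The extra transgene, the longer time in culture and the spheroid shape therefore came together, and their contributions cannot be told apart. The paper places SOX9-mEGFP before SOX9-Halo at each stage, by passage number and spheroid progression. Between the lines the SOX9 tag and the time in culture thus differed together, as did the histone transgene and its drug in spheroids. Their contributions to a difference between the lines cannot be told apart either. All lines were made by lentiviral transduction with a weak ubiquitous promoter and drug selection, from cells of adult C57BL/6J mice, and organoids of several wells were pooled for each library. The authors describe biological triplicates, taken at or near the passage they list for each condition. Neither they nor the labels say that replicates came from separate animals or separate transductions. The p-values therefore measure the spread between these libraries, which may not reflect that between animals or between transduced lines.

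Contractile force in cells comes from non-muscle myosin II pulling on actin filaments. Tropomyosins run along the filament and set which myosins and severing proteins reach it, calponins and transgelins bind and bundle filaments, and phosphorylation of the regulatory light chain turns the motor on. In the intestinal epithelium this system shapes the apical belt and the terminal web under the brush border, while Tagln, Tpm2 and Myl9 are best known from smooth muscle. SOX9 is a transcription factor of crypt stem and progenitor cells.

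Libraries held 28062722 to 40559766 reads counted on genes. Levels are given as CPM, read counts per 1000000 after trimmed mean of M values (TMM) scaling. Sox9 lay at 9.09 to 22.9 CPM in Halo-NLS and at 39.8 to 704 CPM in the 12 overexpressing libraries, with no overlap, and SOX9-Halo budding replicate 1 was the lowest of these 12. Epithelial markers were read in every library, with a summed level of 5700 to 12164 CPM, but went both ways in SOX9-Halo spheroids against Halo-NLS. Vil1, a brush border protein, was at 118 against 1410 CPM, Epcam at 460 against 992 and Cldn7 at 339 against 1240. Krt8 was at 1987 against 2779 CPM and Krt19 at 1270 against 1425.5. Krt18 was higher, at 1556 against 520 CPM, as was Cdh1, at 856 against 614. In SOX9-mEGFP spheroids Vil1 was at 767 CPM. Of 8 smooth muscle markers, Smtn made up most of a summed level of 7.16 to 23.5 CPM, which was highest in Halo-NLS, and Actg2 had at most 3 reads in any library. Acta2, Cnn1, Lmod1 and Myh11 had at most 3 reads in each SOX9-Halo spheroid library, whereas Des reached 59 reads there. Summed fibroblast markers were at 8.12 to 9.39 CPM in Halo-NLS, 2.06 to 9.18 CPM in budding organoids and 1.10 to 2.05 CPM in spheroids of both lines. Vim made up most of the sum in Halo-NLS (mean 6.79 CPM), while Col1a1 was at 0.147 CPM there and at 0.303 and 0.632 CPM in SOX9-mEGFP and SOX9-Halo spheroids. Because RNA was taken in bulk, fewer cells of a type and less RNA per cell cannot be told apart.

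Cnn2, Tagln2 and Tpm4 rose in SOX9-Halo spheroids and Cnn2 and Tpm4 in SOX9-mEGFP spheroids, all against Halo-NLS. Myh14 fell in SOX9-Halo spheroids, and Cnn2 fell in budding organoids of both lines. A differentially expressed gene (DEG) had to reach an adjusted p of 0.01 or less, change 2-fold or more and average 10 or more normalised counts. Of the members, 9 could be tested, since Tagln had too few reads, and the low counts of Tpm2 and Myl9 kept them from being called whatever their p. In SOX9-Halo spheroids against Halo-NLS, 3 members were higher, beside 13.6% of all 17560 genes tested, and 1 was lower, beside 15.3%. In SOX9-mEGFP spheroids 2 members were higher and 0 lower, beside 15.3% and 12.1% of all genes. The median log2 fold change of the members was 1.02 and 1.03 in the spheroids of these lines, against -0.01 and 0.03 for all genes. These medians include the low-count Tpm2 and Myl9, and the members were chosen with earlier results of these data known. Both comparisons share the Halo-NLS libraries.

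Within a line, 3 members rose from budding to spheroid in SOX9-Halo and 2 in SOX9-mEGFP, beside 10.5% and 8.55% of all genes, and 0 fell in either line, beside 14.7% and 7.88%. By edgeR at an unadjusted p under 0.05, 2 members were lower in the SOX9-Halo line and 0 in the SOX9-mEGFP line, and DESeq2 called 0 lower in both. In budding organoids against Halo-NLS, 1 member was lower in each line, beside 1.26% of all genes in SOX9-Halo and 0.763% in SOX9-mEGFP, and 0 were higher, beside 2.49% and 1.99%. At an unadjusted p under 0.05 edgeR gave 0 higher members in SOX9-Halo and 2 in SOX9-mEGFP budding organoids, and DESeq2 called 0 in both. For SOX9-mEGFP spheroids against Halo-NLS, edgeR found 0 lower members at an unadjusted p under 0.05 and DESeq2 called 0. Scaling by library sizes alone moved the median of all genes against Halo-NLS to between 0.27 and 0.31 on the log2 scale. Under that scaling the called members kept their direction, and against Halo-NLS Tpm1, which was not called, changed it in 3 of the 4 comparisons. The split of all called genes into higher and lower went from 438 and 221 to 1069 and 109 in SOX9-Halo budding organoids, and from 350 and 134 to 620 and 108 in SOX9-mEGFP budding organoids. In spheroids it went from 2392 and 2682 to 3103 and 2227 in SOX9-Halo and from 2690 and 2133 to 3334 and 1499 in SOX9-mEGFP.

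**Figure D1:**
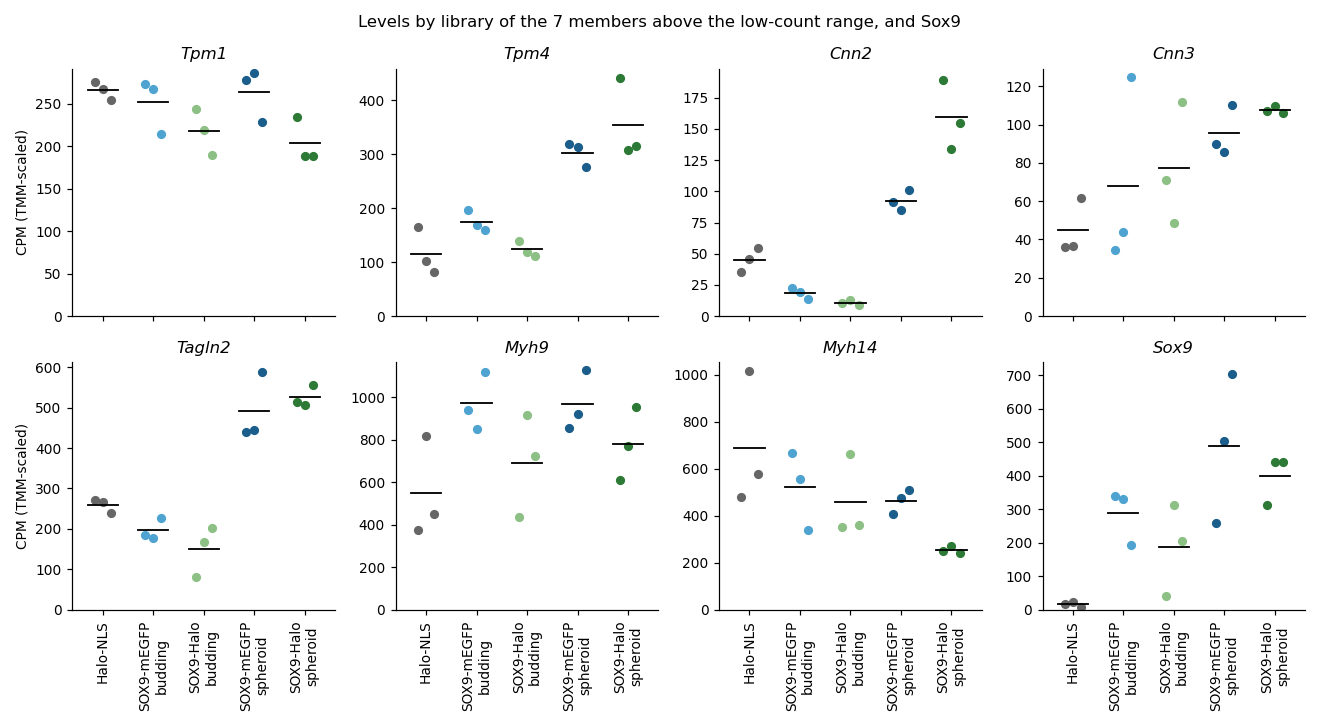
Each point is 1 library and each horizontal line the mean of 3, for the 7 members with more than a few reads and for Sox9, with the level in CPM after TMM scaling on a linear axis from 0 and the 5 conditions along the x axis. Cnn2 sat at 9.15 to 22.8 CPM in the budding overexpressing organoids, at 35.1 to 54.9 in Halo-NLS and at 84.9 to 189 in spheroids, while Tpm1 stayed between 188 and 286 CPM throughout.

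Tpm4 was the only tropomyosin called higher in spheroids. It encodes a short cytoplasmic tropomyosin found on stress fibres and cortical filaments, and the gene (ENSMUSG00000031799) lies on chromosome 8 from 72884018 to 72906987 (GRCm39). Its level was 165, 101 and 81.1 CPM in Halo-NLS replicates 1 to 3, 441, 308 and 316 CPM in SOX9-Halo spheroids and 318, 314 and 276 CPM in SOX9-mEGFP spheroids. All 6 spheroid libraries were above every Halo-NLS library. The log2 fold change was 1.62 ± 0.24 (SE, n = 3 per group) in SOX9-Halo spheroids, adjusted p = 6.6e-05, and 1.39 ± 0.24 in SOX9-mEGFP spheroids, adjusted p = 0.00032. In budding organoids Tpm4 was at 140, 118 and 112.3 CPM in SOX9-Halo and at 196, 169 and 159 CPM in SOX9-mEGFP, overlapping with Halo-NLS in both lines. From budding to spheroid it rose in SOX9-Halo, with a log2 fold change of 1.52 ± 0.24, adjusted p = 0.00012. In SOX9-mEGFP the change was 0.79 ± 0.24 with an adjusted p of 0.021, short of the threshold, and the difference between the lines was 0.73 ± 0.34, adjusted p = 0.20. On chromosome 8 the median of 972 tested genes was itself shifted against Halo-NLS, by 0.32 in SOX9-Halo spheroids and -0.18 in SOX9-mEGFP spheroids. From budding to spheroid that median was 0.41 in SOX9-Halo and -0.06 in SOX9-mEGFP, and 0.42 for the difference between the lines. The part of this shift in the Tpm4 values was not tested.

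Tpm1, a tropomyosin gene of striated muscle that also makes cytoplasmic isoforms, was not called in any comparison. It read 276, 267 and 255 CPM in Halo-NLS and 235, 189 and 188 CPM in SOX9-Halo spheroids, groups that did not overlap, with a log2 fold change of -0.38 ± 0.17 and an adjusted p of 0.081. In SOX9-mEGFP spheroids it read 278, 286 and 229 CPM, a log2 fold change of -0.01 ± 0.17, adjusted p = 0.97.

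Tropomyosin levels were also compared per length, as RPKM computed from the counts and the union of exons of each gene, adding Tpm3 to complete the family. Tpm4 made up 22.2% ± 6.3 (SD, n = 3) of the summed tropomyosin level in Halo-NLS, and 45.8% ± 0.70 and 48.4% ± 5.8 in SOX9-mEGFP and SOX9-Halo spheroids. Tpm1 went from 29.4% ± 1.8 to 15.8% ± 0.73 in SOX9-Halo spheroids and Tpm3 from 48.4% ± 4.9 to 35.7% ± 6.5. Tpm3 was thus the largest of the 4 in Halo-NLS and Tpm4 in the spheroids of both lines. The summed level was 112.3 ± 11.2 RPKM in Halo-NLS and 159 ± 13.6 RPKM in SOX9-Halo spheroids, with Tpm2 under 0.1% of it in all 15 libraries.

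**Figure D2:**
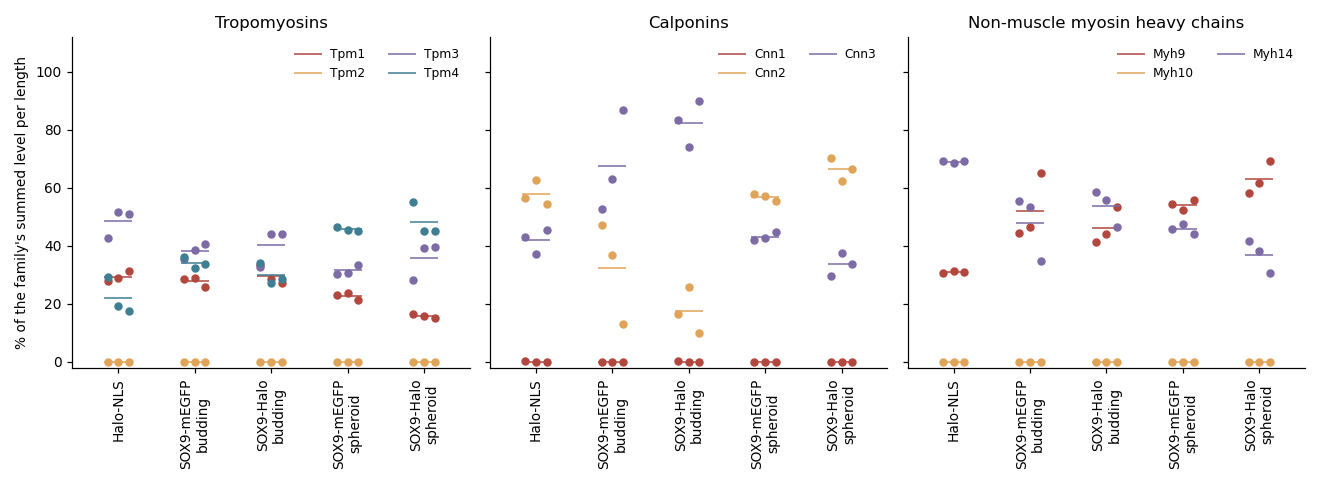
Share of each gene in the summed level per length of its family, in percent on the y axis, for tropomyosins, calponins and non-muscle myosin heavy chains in the 5 conditions; each point is 1 library and each horizontal line the mean of 3. Tpm4 passed Tpm3 in the spheroids, Cnn3 exceeded Cnn2 in the budding overexpressing organoids, and Myh9 exceeded Myh14 in the spheroids.

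Tpm2, a muscle-type tropomyosin, had few reads everywhere. There were 4, 0 and 0 reads in the Halo-NLS libraries, 1, 1 and 2 in SOX9-mEGFP budding organoids and 7, 4 and 1 in SOX9-Halo budding organoids. Spheroid libraries held 10, 16 and 18 reads in SOX9-mEGFP and 6, 8 and 11 in SOX9-Halo. All spheroid libraries thus held more reads than any Halo-NLS library. Summed over libraries and scaled for depth, the ratio of SOX9-mEGFP spheroids to Halo-NLS was 8.42 (95% exact interval 3.07 to 32.3) and that of SOX9-Halo spheroids 5.05 (1.74 to 19.95). All 4 Halo-NLS reads came from replicate 1, so that the size of both ratios rests on that library. Without it 0 Halo-NLS reads were left and no ratio could be formed, but the lower bounds of the intervals were 6.00 and 3.48. Without Halo-NLS replicate 2 the ratios were 5.41 and 3.24. These intervals, made by the Clopper-Pearson method on the split of the reads, cover counting error only. The edgeR test gave an adjusted p of 0.0071 and 0.041, and at these counts the gene was not called.

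Cnn2 showed the widest range of the members above low counts. The gene (ENSMUSG00000004665), calponin 2, encodes an actin-bundling calponin of non-muscle cells and lies on chromosome 10 from 79824410 to 79831896 (GRCm39). It was at 35.1, 45.7 and 54.9 CPM in Halo-NLS, at 22.8, 19.0 and 13.8 CPM in SOX9-mEGFP budding organoids and at 10.3, 12.5 and 9.15 CPM in SOX9-Halo budding organoids. Spheroids read 91.3, 84.9 and 101 CPM in SOX9-mEGFP and 189, 134 and 155 CPM in SOX9-Halo. No 2 of the 5 conditions overlapped, and their order was SOX9-Halo budding, SOX9-mEGFP budding, Halo-NLS, SOX9-mEGFP spheroid and SOX9-Halo spheroid.

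Cnn2 fell in budding organoids against Halo-NLS, by 2.08 ± 0.24 in SOX9-Halo on a log2 scale (adjusted p = 0.00017) and by 1.29 ± 0.23 in SOX9-mEGFP (adjusted p = 0.0036). Fitted on the 6 libraries of each comparison alone, neither fall passed, with adjusted p of 0.022 and 0.060. The SOX9-mEGFP call was also lost, at adjusted p of 0.014 to 0.022, without Halo-NLS replicate 2 or 3 or without SOX9-mEGFP budding replicate 2 or 3. In spheroids Cnn2 rose against Halo-NLS, by 1.82 ± 0.23 in SOX9-Halo (adjusted p = 1.4e-05) and by 1.03 ± 0.23 in SOX9-mEGFP (adjusted p = 0.0019). The second value lies near the fold threshold. It ranged from 0.89 to 1.30 over 14 alternative fits and was not called in 7 of them, among them those without Halo-NLS replicate 1 or SOX9-mEGFP spheroid replicate 3. The rise from budding to spheroid was 3.90 ± 0.25 in SOX9-Halo, a 15.0-fold change, and 2.32 ± 0.24 in SOX9-mEGFP, a 5.00-fold change, with adjusted p of 2.3e-08 and 4.1e-06. Both rises were called in each of the 14 alternative fits.

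The rise of Cnn2 differed between the lines. The contrast of the 2 rises, SOX9-Halo less SOX9-mEGFP, was 1.58 ± 0.32 on the log2 scale, adjusted p = 0.0037, and Cnn2 was the 1 member called higher for it, beside 1.81% of all genes higher and 5.58% lower. The 0 members called lower compare with 1 at an unadjusted p under 0.05 in edgeR and 0 in DESeq2. With 1 library left out the value ranged from 1.41 to 1.83, and the adjusted p was between 0.011 and 0.016 without 7 of the 12 libraries, which were SOX9-Halo budding replicate 1, SOX9-Halo spheroid replicates 1 and 3 and replicates 1 and 2 of both SOX9-mEGFP groups. Between the lines at the same stage, the log2 fold change of SOX9-Halo against SOX9-mEGFP was -0.80 ± 0.23 when budding (adjusted p = 0.16) and 0.79 ± 0.23 as spheroids (adjusted p = 0.020), and neither passed. Neither stage gave a member as DEG between lines, 0 of 9, beside 0.29% higher and 0.165% lower among all genes when budding and 3.59% and 9.58% as spheroids. At an unadjusted p under 0.05 edgeR gave 1 member lower when budding and, as spheroids, 1 higher and 3 lower, and DESeq2 called 0 at both stages.

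**Figure D3:**
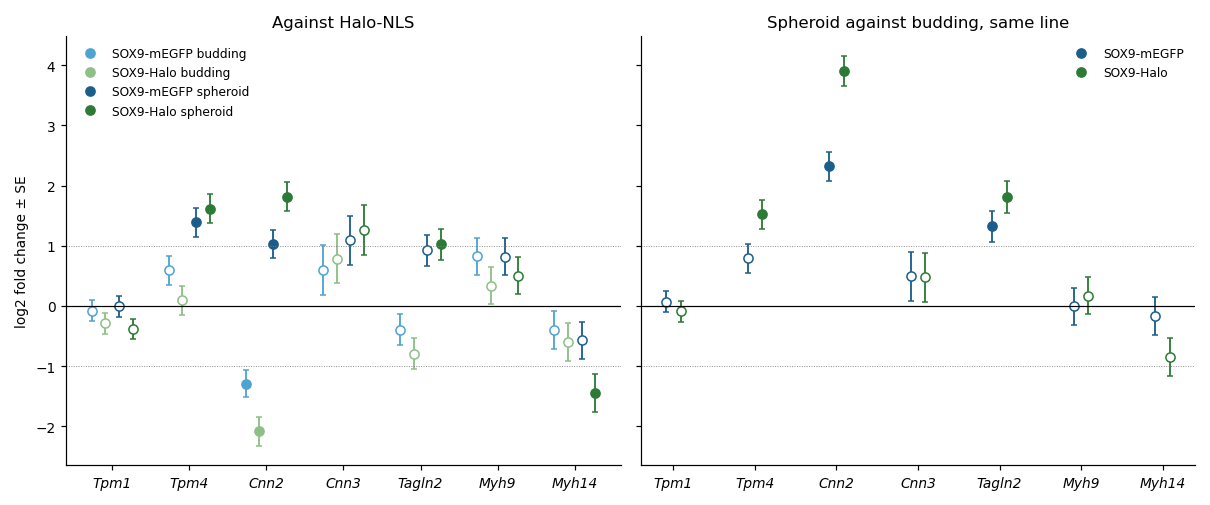
Log2 fold changes (points, edgeR) with standard errors (bars) of 7 members, against Halo-NLS on the left and from budding to spheroid within each line on the right; filled points are called, open points are not, and dotted lines mark a 2-fold change. Cnn2 changed from -2.08 when budding to 1.82 as spheroids in SOX9-Halo, and of the 6 values of Myh14 shown, that of SOX9-Halo spheroids against Halo-NLS, -1.44, was called.

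Promoter sequence is shown for Cnn2 and Myl9 because, of the 9 members with a RefSeq promoter window, these held a CArG box, the element bound by serum response factor (SRF), a regulator of many actin genes. The windows run from 250 bases before to 50 after the start, in build GRCm38.p6, and the box was searched on both strands. Capitals mark the box, which lies 56 bases before the start in Cnn2 (chr10:79988514-79988583, plus strand) and 161 bases before it in Myl9 (chr2:156775273-156775342, plus strand).
Cnn2: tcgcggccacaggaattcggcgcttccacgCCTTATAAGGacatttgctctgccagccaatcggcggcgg
Myl9: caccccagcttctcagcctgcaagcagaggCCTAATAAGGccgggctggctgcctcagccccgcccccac
A CArG box was present in 1.64% of the 32544 promoter windows of the genome. The letters GGAATG, read by TEAD factors, matched in Tpm1 and Tagln2 and in 14.6% of all windows, while TGANTCA, the AP-1 site, and AACAAT, a SOX-type motif, matched in none of the 9 member windows and in 7.79% and 10.6% of all windows, all searched on both strands. These matches describe letters in the window, and binding was not measured.

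Cnn3, calponin 3, an acidic calponin of non-muscle cells, did not pass the test in any comparison under the settings used throughout, but did under some alternatives. It was at 36.1, 36.5 and 61.9 CPM in Halo-NLS, at 89.9, 85.9 and 110 CPM in SOX9-mEGFP spheroids and at 107, 110 and 106 CPM in SOX9-Halo spheroids, so that the spheroids did not overlap with Halo-NLS. The log2 fold changes were 1.26 ± 0.41 in SOX9-Halo and 1.09 ± 0.41 in SOX9-mEGFP, with adjusted p of 0.021 and 0.040. Budding organoids were scattered, with 34.5, 43.9 and 125 CPM in SOX9-mEGFP and 71.1, 48.8 and 111.99 CPM in SOX9-Halo. Replicate 3 was the highest in both budding groups, in Halo-NLS and in SOX9-mEGFP spheroids. In these 4 groups it also had the largest share of reads on no annotated gene, 4.67% in SOX9-Halo budding organoids, 4.51% in SOX9-mEGFP budding organoids, 5.72% in Halo-NLS and 6.09% in SOX9-mEGFP spheroids. In SOX9-Halo spheroids replicate 1 had the largest such share, 4.14%, and was the middle library for Cnn3. The part of that share in the Cnn3 values was not tested. With the replicate number as a block over all libraries, Cnn3 was called against Halo-NLS in SOX9-Halo spheroids (1.35, adjusted p = 0.0019) and SOX9-mEGFP spheroids (1.14, adjusted p = 0.0059), although the numbers were not shown to pair these libraries. Without a low-count filter it was called in both, at 1.35 (adjusted p = 2.0e-05) and 1.17 (adjusted p = 0.00033). It was also called in SOX9-Halo spheroids with only the 6 libraries compared in the fit, without the block (1.22, adjusted p = 0.0059) and with it (1.28, adjusted p = 0.0024), and, from budding to spheroid in SOX9-mEGFP, without SOX9-mEGFP budding replicate 3 (1.24, adjusted p = 0.0093). Per length, Cnn2 made up 58.0% ± 4.3 of the calponins in Halo-NLS, 17.4% ± 8.0 in SOX9-Halo budding organoids and 66.4% ± 4.1 in SOX9-Halo spheroids, with Cnn3 nearly all of the rest. The summed calponin level was 31.8 ± 8.1, 27.5 ± 9.0 and 96.9 ± 11.0 RPKM in these conditions.

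Tagln2, transgelin 2, the non-muscle transgelin, followed the order of Cnn2 at a higher level. It (ENSMUSG00000026547) lies on chromosome 1 from 172327426 to 172334947 (GRCm39) and supplied over 99% of the transgelin level per length in all libraries. Its level was 272, 266 and 239 CPM in Halo-NLS, 184, 178 and 228 CPM in SOX9-mEGFP budding organoids and 81.4, 166 and 201 CPM in SOX9-Halo budding organoids. Spheroids read 439, 445 and 587 CPM in SOX9-mEGFP and 515, 506 and 557 CPM in SOX9-Halo. Spheroids were above every other library, and budding libraries of both SOX9 lines were below every Halo-NLS library. The lowest value fell in SOX9-Halo budding replicate 1, the library with the least Sox9 of the overexpressing lines.

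From budding to spheroid Tagln2 rose in both lines, with log2 fold changes of 1.82 ± 0.27 in SOX9-Halo (adjusted p = 5.4e-05) and 1.32 ± 0.26 in SOX9-mEGFP (adjusted p = 0.0013). Without SOX9-Halo budding replicate 1 the first value was 1.52, adjusted p = 5.6e-05. Without SOX9-mEGFP budding replicate 2 the second was no longer called, at 1.23 and an adjusted p of 0.011. Against Halo-NLS the rise was 1.02 ± 0.26 in SOX9-Halo spheroids, adjusted p = 0.0045, at the edge of the fold threshold. It lost the call in 9 of 14 alternative fits, among them those without any 1 of the 3 SOX9-Halo spheroid libraries or without Halo-NLS replicate 2 or 3, over a range of 0.96 to 1.31. In SOX9-mEGFP spheroids it was 0.92 ± 0.26, adjusted p = 0.0088, under the fold threshold, and was called with library sizes alone (1.19, adjusted p = 0.0034). The fall in budding organoids was not called, at -0.79 ± 0.26 (adjusted p = 0.046) in SOX9-Halo and -0.40 ± 0.26 (adjusted p = 0.28) in SOX9-mEGFP.

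Tagln, the smooth muscle transgelin SM22 alpha, had 2, 4 and 2 reads in Halo-NLS, 5, 3 and 9 in SOX9-mEGFP budding organoids and 9, 8 and 9 in SOX9-Halo budding organoids. Spheroids had 7, 6 and 9 reads in SOX9-mEGFP and 5, 8 and 18 in SOX9-Halo. The summed, depth-scaled ratio of SOX9-Halo spheroids to Halo-NLS was 3.13 (95% exact interval 1.41 to 7.88, counting error only), and that of SOX9-mEGFP spheroids 2.11 (0.903 to 5.47), an interval that includes 1. SOX9-Halo spheroid replicate 3 held 18 of the 31 reads of its group, and without it the first ratio was 2.08 (0.799 to 5.78), which also includes 1. No model test was made. Of the exonic bases of Tagln, 66.7% overlap with Pcsk7 and Gm48529 on the opposite strand (GRCm39), and the counting ignored strand and set reads there aside as ambiguous, so that the counts rest on the remaining bases.

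Myl9 encodes the smooth muscle type of regulatory light chain, and its few reads separated the spheroids of the lines. Its reads were 4, 4 and 4 in Halo-NLS, 3, 3 and 1 in SOX9-mEGFP budding organoids and 2, 2 and 0 in SOX9-Halo budding organoids. In SOX9-mEGFP spheroids there were 17, 15 and 17 reads, and in SOX9-Halo spheroids 0, 0 and 0, which allows up to 0.0804 to 0.106 CPM per library at 3 reads. With SOX9-Halo spheroids set to that floor of 3 reads in each library, the level was at least 5.09-fold lower than in SOX9-mEGFP spheroids. The edgeR test of this pair gave an adjusted p of 0.00015, but the mean count was under 10 and the gene was not called. The ratio of SOX9-mEGFP spheroids to Halo-NLS was 3.13 (95% exact interval 1.64 to 6.46), with an adjusted p of 0.026. Of the exonic bases of Myl9, 7.37% overlap with a gene on the opposite strand.

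**Figure D4:**
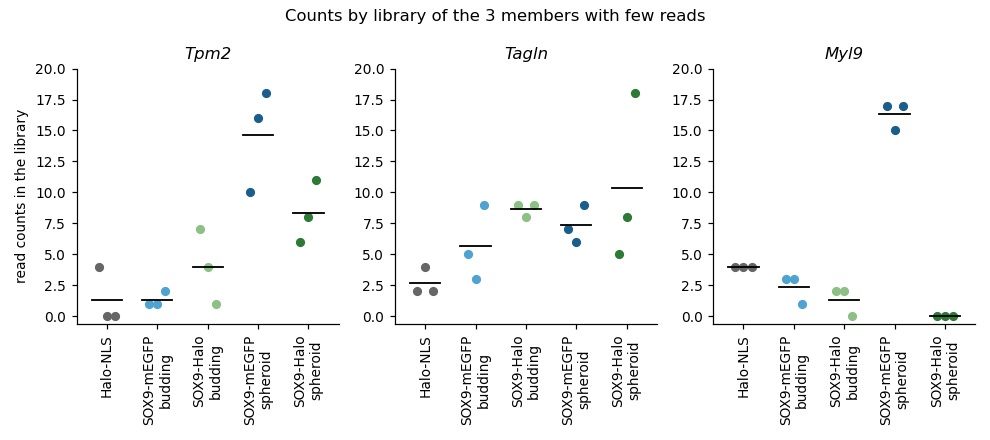
Read counts in each library (points) and their means (lines) for Tpm2, Tagln and Myl9, on a linear axis, in the 5 conditions. No library passed 18 reads, and Myl9 was at 15 to 17 reads in SOX9-mEGFP spheroids against 0 in all SOX9-Halo spheroid libraries.

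Myh14, the heavy chain of non-muscle myosin IIC, fell in SOX9-Halo spheroids. The gene (ENSMUSG00000030739) lies on chromosome 7 from 44255096 to 44320307 (GRCm39), and its product is a main myosin II of the intestinal epithelium. It read 478, 1015 and 577 CPM in Halo-NLS against 250, 270 and 240 CPM in SOX9-Halo spheroids, without overlap. The log2 fold change was -1.44 ± 0.32, adjusted p = 0.0017. Without Halo-NLS replicate 2, the highest library, it was -1.05 with an adjusted p of 0.012, and the call was lost. SOX9-mEGFP spheroids read 408, 474 and 509 CPM, overlapping with Halo-NLS, with a log2 fold change of -0.57 ± 0.31 and an adjusted p of 0.14. SOX9-mEGFP spheroid libraries were all above the SOX9-Halo ones, and that difference was -0.87 ± 0.32, adjusted p = 0.059, short of the threshold. Budding organoids read 668, 557 and 339 CPM in SOX9-mEGFP and 353, 661 and 358 CPM in SOX9-Halo, and spheroids against budding organoids gave -0.85 ± 0.32 in SOX9-Halo, adjusted p = 0.042.

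Myh9, the heavy chain of non-muscle myosin IIA, which drives stress fibre and cortical contraction, did not pass in any comparison with all libraries. It was at 373, 819 and 451 CPM in Halo-NLS, 940, 851 and 1118 CPM in SOX9-mEGFP budding organoids and 435, 914 and 721 CPM in SOX9-Halo budding organoids. Spheroids read 852, 918 and 1127 CPM in SOX9-mEGFP and 611, 769 and 951 CPM in SOX9-Halo. SOX9-mEGFP libraries of both stages were above every Halo-NLS library, while SOX9-Halo libraries overlapped with them. The log2 fold change of SOX9-mEGFP spheroids against Halo-NLS was 0.82 ± 0.31, adjusted p = 0.039, and without Halo-NLS replicate 2 it was 1.24 with an adjusted p of 0.0048. Myh9 (ENSMUSG00000022443) lies on chromosome 15, where the median of 741 tested genes was itself shifted by 0.37 and 0.36 against Halo-NLS in SOX9-mEGFP budding organoids and spheroids, and by -0.10 and -0.08 in those of SOX9-Halo. The part of this shift in the Myh9 values was not tested.

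Both heavy chain genes were highest in replicate 2 in Halo-NLS and in SOX9-Halo budding organoids. That library had the smallest share of reads on no annotated gene in each group, 1.83% and 2.43%. Replicate 2 also had the smallest such share in SOX9-mEGFP budding organoids (2.36%) and SOX9-Halo spheroids (2.84%). In these it was the lowest and the middle library for Myh9 (851 and 769 CPM). For Myh14 it was the middle and the highest (557 and 270 CPM). The part of that share in these values was not tested. In Halo-NLS the ratio of Myh9 to Myh14 varied less, since Myh9 made up 30.8% to 31.5% of the heavy chain level per length there. In SOX9-mEGFP budding organoids, by contrast, that share ran from 44.5% to 65.2%. The share of Myh9 was 52.1% ± 11.4 and 46.2% ± 6.4 in SOX9-mEGFP and SOX9-Halo budding organoids and 54.2% ± 1.6 and 63.1% ± 5.6 in the corresponding spheroids, above Halo-NLS in all 12 overexpressing libraries. Myh14 made up nearly all of the rest, at 68.9% ± 0.38 in Halo-NLS and 36.9% ± 5.7 in SOX9-Halo spheroids, and Myh10, the third non-muscle heavy chain, stayed under 0.1%. These shares are a description and were not tested.

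Members did not move as 1 block across the 15 libraries. On log2 CPM the highest Pearson r among them was 0.90 for Tagln2 and Cnn2, followed by 0.80 for Tpm2 and Tpm4, 0.73 for Tpm1 and Myl9, and 0.72 for Tpm4 with both Tagln2 and Cnn2. Cnn3 and Myh14 had the lowest, -0.78. After the means of the 5 conditions were taken out, r of Tagln2 and Cnn2 was -0.15, so that the shared course lay between conditions. The genes most like Cnn2 among 11054 genes of sufficient count were Pwwp2b (0.99) and Myl12a (0.98), those most like Tagln2 were Epn3 and Slc7a5 (0.97 and 0.96), and those most like Tpm4 were Asah1 and Perp (0.97 and 0.96). Myl9 was most like Fhl1 (0.95) and AA467197 (0.94). For Tpm1 the closest were Fam162a and Serpinb6a (0.93 and 0.89), for Tpm2 Trim68 and Ahnak (0.90 and 0.89), for Cnn3 Xrcc2 and Ninl (0.95 and 0.92), and for Myh9 Tns3 and Sipa1l1 (0.92 and 0.92). For Myh14 the closest was AU040320 (0.98). The points share libraries and conditions, so these values carry no p. Those of Tpm2 and Myl9 rest on at most 18 reads in any library.

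Partners of the members in the contractile system were taken from 6 lists. Among all genes tested against Halo-NLS, 13.6% were called higher and 15.3% lower in SOX9-Halo spheroids, and 15.3% and 12.1% in SOX9-mEGFP spheroids. Of 8 tested subunits and other family genes, 0 were called in SOX9-Halo spheroids against Halo-NLS, where edgeR gave 2 higher and 2 lower at an unadjusted p under 0.05, and 1 was higher in SOX9-mEGFP spheroids. That gene, named after its values were seen, was Cald1, caldesmon, which inhibits actomyosin, at 11.1 ± 1.1 CPM against 0.25 ± 0.40 in Halo-NLS and 1.35 ± 0.18 in SOX9-Halo spheroids. The light chain Myl12a was at 68.3 ± 4.8 CPM in Halo-NLS and 91.9 ± 6.2 CPM in SOX9-Halo spheroids, which was not called (adjusted p = 0.028). Reads that fit Myl12a and the near-identical Myl12b equally well were dropped, since only unique alignments were kept. Myl6, the essential light chain, and Tpm3 were not called.

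Regulators of myosin II showed 4 higher and 2 lower of 19 in SOX9-Halo spheroids, beside 13.6% and 15.3% of all genes. In SOX9-mEGFP spheroids 2 were higher and 0 lower, beside 15.3% and 12.1%. There 4 were lower at an unadjusted p under 0.05 in edgeR. The 2 that fell in SOX9-Halo spheroids were Mylk, the kinase that phosphorylates the regulatory light chain, and Rhoc, a small GTPase. Mylk was at 0.31 ± 0.15 CPM against 53.8 ± 25.5 in Halo-NLS (log2 fold change -7.47 ± 0.59, adjusted p = 1.1e-07) and at 46.9 ± 19.9 CPM in SOX9-mEGFP spheroids. The contrast of the changes into spheroids, SOX9-Halo less SOX9-mEGFP, was -7.33 ± 0.70 for Mylk, adjusted p = 5.7e-06, and -3.49 ± 0.55 for Rhoc, adjusted p = 0.00049. Cdc42bpa, the MRCK alpha kinase, rose in both spheroids, from 4.65 ± 3.6 to 17.3 ± 0.99 and 25.5 ± 8.3 CPM in SOX9-Halo and SOX9-mEGFP. Rhoa, Ppp1cb and Ppp1r14b, the most abundant of the list, were not called against Halo-NLS. The medians of the list were 0.63 and 0.43 in the spheroids, against -0.01 and 0.03 for all genes.

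Among stress fibre and adhesion-linked genes, 7 were higher and 3 lower of 23 in SOX9-Halo spheroids, beside 13.6% and 15.3% of all genes. In SOX9-mEGFP spheroids 9 were higher and 1 lower, beside 15.3% and 12.1%. The medians of the list were 0.08 and 0.12. Enah, an actin polymerase of the Ena/VASP family, rose from 0.43 ± 0.57 CPM to 49.5 ± 3.4 and 56.5 ± 17.9 CPM in SOX9-Halo and SOX9-mEGFP spheroids. Evl, of the same family, rose to 51.5 ± 12.2 and 18.7 ± 5.9 CPM from 2.16 ± 0.82, and was already called higher in the budding organoids of both lines, at 29.8 ± 10.0 and 23.8 ± 14.3 CPM. Synpo, synaptopodin, fell from 37.9 ± 17.5 CPM to 1.21 ± 0.19 and 4.49 ± 0.78 CPM. Actn4, Lima1 and Lasp1, the most abundant of the list, were not called against Halo-NLS in either spheroid.

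Of 17 genes of actin assembly and turnover, 3 were higher and 1 lower in SOX9-Halo spheroids, beside 13.6% and 15.3% of all genes. In SOX9-mEGFP spheroids 5 were higher and 1 lower, beside 15.3% and 12.1%. The medians of the list were 0.33 and 0.47. Capg, which caps filament ends, had a course like that of Cnn2, falling from 8.78 ± 1.7 CPM in Halo-NLS to 2.93 ± 1.6 and 1.48 ± 0.40 CPM in SOX9-Halo and SOX9-mEGFP budding organoids and rising to 187 ± 50.6 and 95.9 ± 14.1 CPM in their spheroids, all 4 called. The actin-sequestering thymosins went opposite ways in SOX9-Halo spheroids, with Tmsb4x at 414 ± 28.5 against 102 ± 48.5 CPM and Tmsb10 at 292 ± 147 against 1537 ± 226 CPM. Cfl1, cofilin, was called lower in SOX9-mEGFP spheroids (log2 fold change -1.16) and in SOX9-Halo budding organoids (-1.19), and Dstn was not called against Halo-NLS in either spheroid. Of 3 tested actins, 1 was lower and 0 higher in each spheroid, with 0 higher at an unadjusted p under 0.05. It was Acta1, skeletal actin, at 26.5 ± 5.6 CPM in Halo-NLS and 0.13 ± 0.067 and 2.14 ± 0.18 CPM in SOX9-Halo and SOX9-mEGFP spheroids. Actb went from 3335 ± 765 to 1705 ± 49.8 CPM in SOX9-Halo spheroids, a log2 fold change of -0.97 ± 0.23 (adjusted p = 0.0033) that stayed under the fold threshold, and Actg1 was not called.

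SRF and its cofactors gave 1 higher of 6 in SOX9-Halo spheroids and 2 in SOX9-mEGFP spheroids, beside 13.6% and 15.3% of all genes. Elk3, a ternary complex factor, rose from 0.15 ± 0.036 CPM to 16.01 ± 1.6 and 14.8 ± 4.3 CPM. Srf itself was at 60.2 ± 12.7 CPM in Halo-NLS and 49.3 ± 10.8 CPM in SOX9-Halo spheroids, adjusted p = 0.34, and Mrtfa and Mrtfb were not called.

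**Figure D5:**
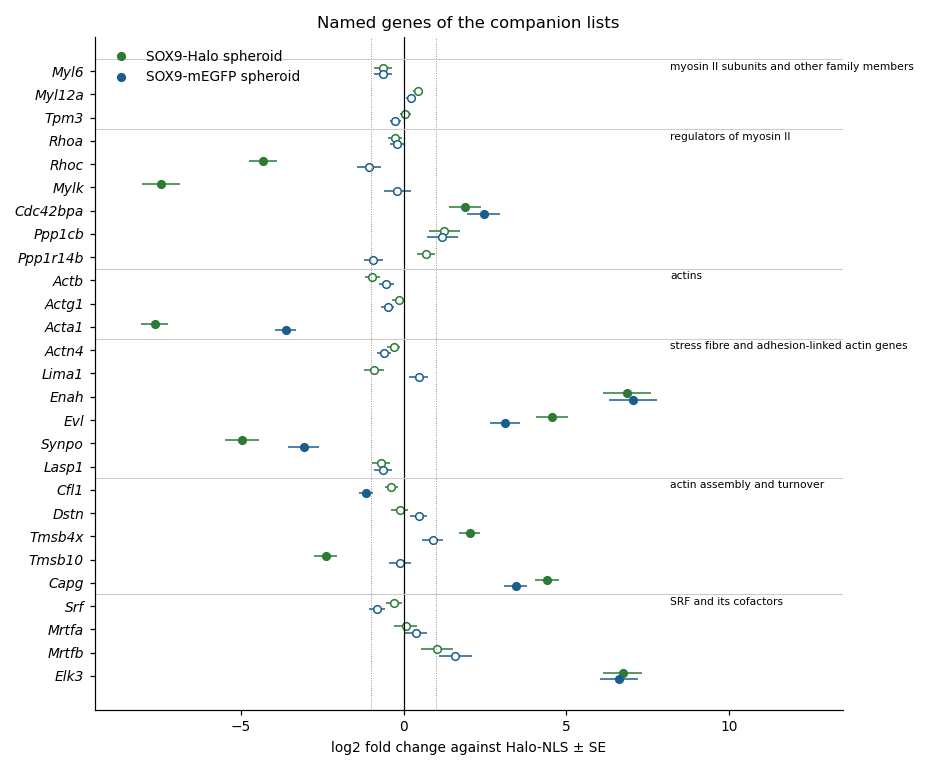
Log2 fold changes against Halo-NLS with standard errors (bars) of the named genes of the 6 lists, in SOX9-Halo and SOX9-mEGFP spheroids; filled points are called, open points are not, dotted lines mark a 2-fold change, and list names stand at the right. Mylk and Rhoc were called lower in SOX9-Halo spheroids and not in SOX9-mEGFP spheroids, while Enah, Evl, Capg and Elk3 were called higher in both.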

How the data were processed

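Members and lists were chosen with earlier results of these data known. The authors trimmed paired reads with cutadapt 4.5, aligned them with STAR to mm39 (GRCm39), keeping unique alignments, and deposited raw counts per gene (Ensembl annotation) from HTSeq 2.0.2 without strand. Their comparison tables and normalised counts, made with DESeq2, hold means, fold changes and p-values and were not used here. Reads on no feature (1.83% to 6.09%) and ambiguous reads (9.65% to 13.6%) were left out of library sizes. Counts were fitted with edgeR 4.0.16 (R 4.3.3): TMM scaling, filterByExpr, 1 coefficient for each of 5 groups, quasi-likelihood tests and Benjamini-Hochberg adjustment over 17560 genes. The thresholds follow the study. The standard error is the absolute log2 fold change over the root of F. The test was checked on simulated counts. Replicate numbers were taken to pair groups where same-number deviations from group means correlated above 0.1 for all 3 numbers. Only SOX9-Halo budding and SOX9-Halo spheroid met this, at 0.40, 0.23 and 0.34. Some numbers were more alike elsewhere, such as replicate 2 of Halo-NLS and SOX9-Halo budding at 0.82, with replicate 3 at -0.05. Replicate 3 of the budding groups correlated at 0.74, with replicate 1 at 0.04. Named partners were the 3 most abundant and the 3 most changed called genes (SOX9-Halo spheroid against Halo-NLS) of each list, and the 2 genes most like each member among those with a mean count of at least 100. For Myh14, 1 of these is not reported here. Alternatives were DESeq2 1.42.0, other scalings, filters, thresholds, blocks and libraries left out. Gene positions came from GENCODE on GRCm39 and 78168 of 78298 identifiers matched.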

Additional observations from a re-analysis of the deposited data

Results flagged for a closer look

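The rise of Cnn2 into spheroids was not the same in both lines, with a difference of 1.58 on the log2 scale (SOX9-Halo less SOX9-mEGFP, edgeR adjusted p = 0.0037), as a test of the difference itself showed. All 3 SOX9-Halo spheroid libraries were above the SOX9-mEGFP ones and all 3 SOX9-Halo budding libraries below, and without 7 of the 12 libraries, left out in turn, the adjusted p was 0.011 to 0.016.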

How the results depend on the processing

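With only the libraries compared in the fit, with or without the replicate number as a block, the members called against Halo-NLS went from 1 to 0 in budding organoids of each line. In SOX9-mEGFP spheroids against Halo-NLS they went from 2 to 1, with Tpm4 left, under RLE scaling, a filter of at least 1 CPM in 3 libraries, only the libraries compared (also with the block) and DESeq2. The cause was not tested. In the pair that met the rule for pairing by number, SOX9-Halo budding and spheroid, the replicate block kept the 3 calls, Tpm4 at 1.47, Tagln2 at 1.87 and Cnn2 at 3.86. Values near 0 changed sign: Tpm1 with library sizes alone was at 0.0041, 0.14 and 0.25 against Halo-NLS in SOX9-Halo budding, SOX9-mEGFP budding and SOX9-mEGFP spheroids and at 0.051 without a low-count filter in the last, Myh9 from budding to spheroid in SOX9-mEGFP was at 0.0099 with library sizes alone, and Cnn3 in the difference between the lines was at 0.0044 without a filter, 0.013 with at least 1 CPM and 0.0040 with only the libraries compared.

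With 1 library left out, the members called ranged from 0 to 1 (SOX9-mEGFP budding), 2 to 4 (SOX9-Halo spheroid, with 2 without Halo-NLS replicate 2) and 1 to 3 (SOX9-mEGFP spheroid) against Halo-NLS, from 1 to 3 from budding to spheroid in SOX9-mEGFP (1 without SOX9-mEGFP budding replicate 2) and from 0 to 1 for the difference between the lines. Against Halo-NLS the log2 fold changes spanned -0.11 to 0.44 for Tpm4 in SOX9-Halo budding, -0.14 to 0.021 for Tpm1, -0.92 to 3.53 for Tpm2 and -0.20 to 0.92 for Cnn3 in SOX9-mEGFP budding, and -0.085 to 0.072 for Tpm1 in SOX9-mEGFP spheroids. From budding to spheroid they spanned -0.074 to 0.43 for Myh9 in SOX9-Halo and, in SOX9-mEGFP, -0.081 to 0.14 for Tpm1, -0.16 to 0.057 for Myh9 and -0.45 to 0.049 for Myh14. Between budding lines they spanned -0.17 to 0.94 for Cnn3 and -0.55 to 0.030 for Myh14, and for the difference between the lines -0.28 to 0.019 for Tpm1, -0.71 to 0.35 for Cnn3 and -0.068 to 0.44 for Myh9. None of these values was called.

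Of 1146 recomputed values of members, 1069 kept direction and call, 33 lost the call, 9 gained it and 35 changed sign. Over all genes the calls moved by more than 1.5 times in budding organoids, where 659 in SOX9-Halo against Halo-NLS became 5 (only the libraries compared) to 2370 (without Halo-NLS replicate 1), 484 in SOX9-mEGFP became 103 to 2184 under the same settings, and 80 between the lines became 9 (block, only the libraries compared) to 280 (no filter). The 4823 calls of SOX9-mEGFP spheroids became 2874 with the block in the libraries compared, and the 1297 of the difference between the lines became 2058 at an adjusted p of at most 0.05. Depth limits Tpm2, Tagln and Myl9, whose counts were too low to be called. The ratios of their reads without each library in turn were chosen after seeing the data.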
